A study of Mus musculus with 4 samples.

Results

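The semaphorins, plexins and neuropilins form one family of guidance ligands and their receptors. Members were taken by symbol alone, as every gene of the count matrix named Sema3 to Sema7 with 1 letter from a to g, Plxn with a class letter and a number, or Nrp1 or Nrp2. That rule found 31 of 32285 genes, of which 20 are semaphorins, 9 plexins and 2 neuropilins. Their UMIs, the molecules counted by a barcode on each transcript, were read in single nuclei of the posterior hindbrain around the area postrema and the nucleus of the solitary tract of adult mice aged 12 to 20 weeks. There were n = 2 libraries of control mice and n = 2 libraries of AgRP-Gq;POMC-Gi mice. The latter carry 4 alleles, each in 1 copy, which are AgRP-IRES-Cre+/- with hM3DGq fl/-, and POMC-Dre+/- with hM4DGi fl/-. The controls are labelled WT, and by the study's breeding scheme they carry both receptor alleles too, as hM3DGq fl/- and hM4DGi fl/-, but no recombinase, being AgRP-IRES-Cre-/- and POMC-Dre-/-. In AgRP-Gq;POMC-Gi mice, Cre from the AgRP locus allows the activating receptor hM3DGq and Dre from the POMC locus the inhibitory receptor hM4DGi, and the receptors are meant for neurons of those names. AgRP neurons lie in the hypothalamus, outside the tissue measured, and POMC neurons lie there and in smaller number in the nucleus of the solitary tract. All mice of both groups received clozapine-N-oxide (CNO), the receptors' ligand, at 3 mg per kg, and tissue was taken 1 h later in the absence of food. Mice of both sexes were used and tissue of 2 mice per group was pooled. The labels do not say which animals entered which library, so the parts of technique and of animals in the spread between libraries were not told apart.

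Semaphorins are secreted or membrane-bound proteins known for repelling or attracting growing axons, and in the adult brain for roles at synapses, vessels and glia. Class 3 semaphorins are secreted and most of them act through a neuropilin, which binds the ligand, together with a class A plexin, which carries the signal into the cell. Classes 4 to 6 span the membrane and class 7 is tethered to it by a lipid anchor, and these mostly bind plexins directly. All plexins have a domain inside the cell that switches off small GTPases of the Ras and Rap kind.

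The authors kept 39461 of 44303 barcodes, with 9723 to 10051 nuclei and 48904976 to 53089402 UMIs per library, and 19 to 36 kept barcodes occurred in both libraries of a pair. Levels are given as CPM, the UMIs of a gene for each 1000000 UMIs of the same nuclei and library, as mean ± SD over n = 4 libraries unless stated, and 4 values in a row give first the control libraries and then the AgRP-Gq;POMC-Gi libraries, each pair in the order of replicates 1 and 2. Comparisons across cell types use the 10 types of the authors' table with at least 20 nuclei in every library. In 9 of these 10 types the marker list of that type was at its highest mean, and the exception was tanycyte-like nuclei, whose list summed to 594, 387, 379 and 414 CPM there and to 506, 335, 350 and 586 CPM in fibroblasts, so the list did not set that type apart. *Tmem119*.Immune cells carry markers of microglia. AgRP-Gq;POMC-Gi replicate 2 stood apart in *Xist*, the RNA of the inactive X chromosome in females, at 22.4 CPM against 471 to 729 CPM in the other libraries. A UMI of *Xist* was found in 2.29% of its nuclei, against 41.9 to 61.6% in the others. The part of sex in the spread between libraries was not tested. The libraries held 2, 436, 6 and 329 choroid plexus nuclei. The summed choroid plexus markers were also highest in replicate 2 of each group, at 7.82, 1015, 12.8 and 591 CPM in neurons and 13.6, 7882, 40.8 and 4230 CPM in endothelial cells, and their part in member levels was not tested. Cell types and clusters were drawn by the authors from the expression of the same nuclei, so levels across them are descriptions without a test, and since reads come from the 3′ end no member is ranked against another.

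The members were highest in many different cell types. Of the 31 members, 16 (51.6%) had a cell type in which every library lay above every library of the other 9 types, beside 28.4% of the 18960 genes with at least 100 UMIs. Endothelial cells held 5 of these 16 (*Plxnd1*, *Sema3c*, *Sema3g*, *Sema6a* and *Sema7a*), oligodendrocyte precursor cells (OPC) 4 (*Plxna3*, *Sema3d*, *Sema3e* and *Sema5b*), astrocytes 2 (*Sema4a* and *Sema4b*), *Tmem119*.Immune cells 2 (*Plxna4* and *Sema4d*), and oligodendrocytes (*Plxnb3*), tanycyte-like cells (*Sema6d*) and neurons (*Sema3a*) 1 each. The highest mean was in neurons for 3 of 31 members (9.68%), *Sema3a*, *Sema4f* and *Sema4g*, close to the 13.7% of all genes, and neurons came second for 9 more. These counts are for CPM. By the mean natural log value per nucleus 9 members were highest in neurons, without AgRP-Gq;POMC-Gi replicate 2 the number was 5, and when the rare cell types were included 6 members stood apart from every other type.

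**Figure D1:**
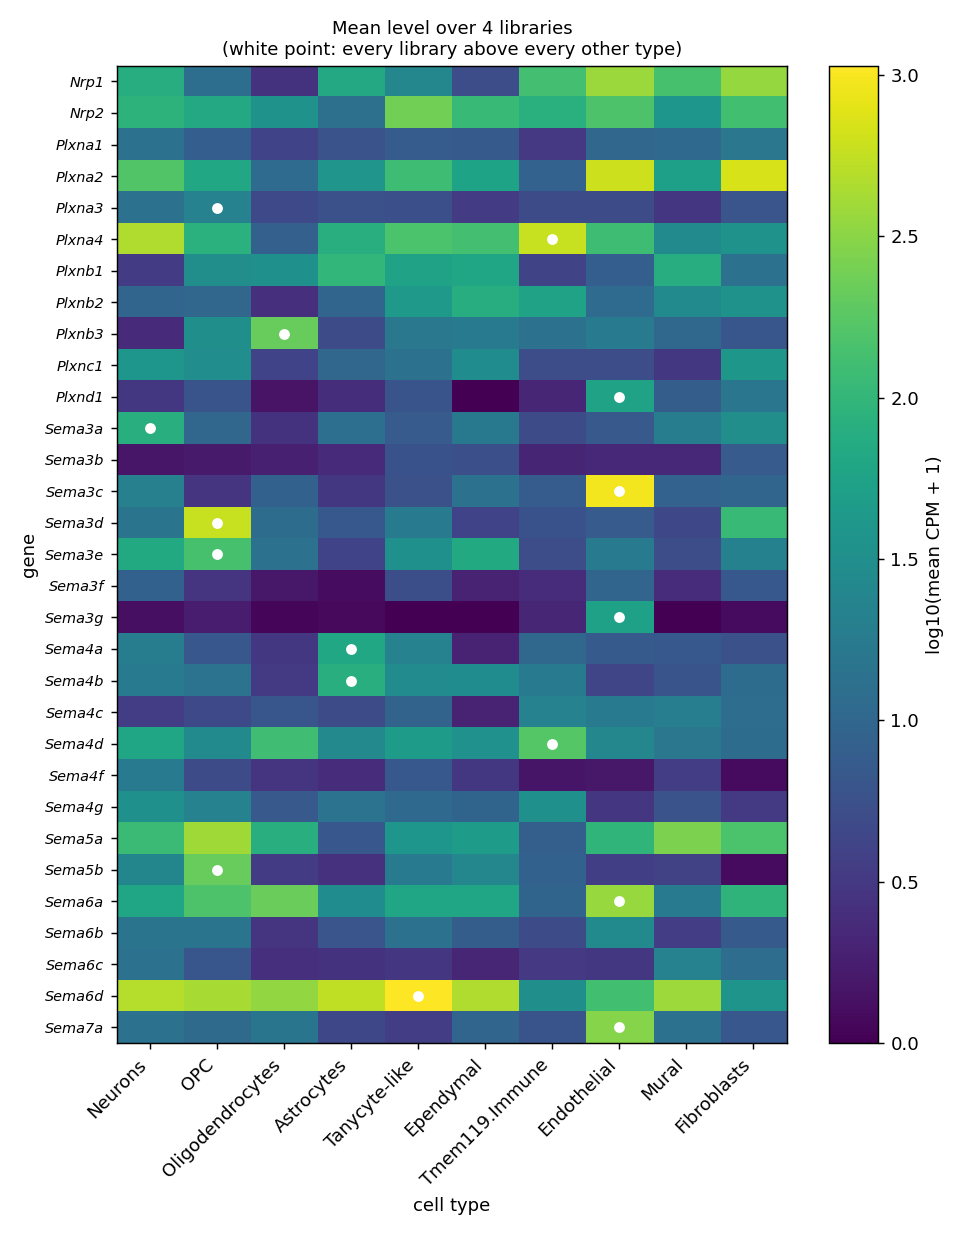
Mean level of each of the 31 members in the 10 cell types, as log10 of the mean CPM over 4 libraries plus 1, with a white point where every library of a type was above every library of all other types. The 16 points are spread over 7 cell types, and 1 of them, for *Sema3a*, is in neurons.

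Neither neuropilin was particular to a type. *Nrp1* (chr8:128358604-128503363, GRCm38), the co-receptor that also binds vascular endothelial growth factor, was measured at 196, 528, 408 and 367 CPM in endothelial cells and at 172, 337, 359 and 529.7 CPM in fibroblasts, means 375 ± 137 and 349 ± 146. The libraries of these types overlapped, and without control replicate 2 fibroblasts were the higher type. In neurons *Nrp1* lay at 71.9, 71.1, 65.3 and 94.9 CPM. *Nrp2* (chr1:62703285-62818695), the partner of plexins for *Sema3c* and *Sema3f*, reached 133, 275, 311 and 254 CPM in tanycyte-like nuclei, which number 26 in each control library, against 119.9, 142, 134 and 209.9 CPM in endothelial cells. Its neuronal level was 80.0, 83.7, 96.1 and 97.6 CPM, with little spread. The lowest shares of nuclei with a UMI were 0.470% for *Nrp1*, in oligodendrocytes, and 3.61% for *Nrp2*, in astrocytes, while 30.0% of endothelial and 46.0% of tanycyte-like nuclei had one, at median depths of 2460, 3375.5, 1460 and 3198 UMIs.

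Among the class A plexins, which pair with neuropilins or bind class 6 semaphorins, *Plxna4* (chr6:32144268-32588192) was high in both immune cells and neurons. It lay at 649, 516, 547 and 663 CPM in *Tmem119*.Immune cells and at 474, 441, 481 and 444 CPM in neurons, so that the lowest immune library exceeded the highest neuronal one. By the mean log value per nucleus neurons were the higher type. *Plxna2* (chr1:194618218-194816869), a receptor of class 6 semaphorins, was highest in fibroblasts at 345, 634, 781 and 1013 CPM and in endothelial cells at 717, 744, 501 and 557 CPM, and these overlapped. Neurons followed at 147, 147, 174 and 164 CPM, below every library of both. *Plxna1* (chr6:89316314-89362620) and *Plxna3* (chrX:74329066-74344689) were low throughout. *Plxna1* had its highest mean in fibroblasts, 14.8 ± 5.76 CPM, next to 12.8 ± 1.41 CPM in neurons, and *Plxna3* in OPC, 20.9 ± 6.49 CPM, next to 12.6 ± 0.871 CPM in neurons. *Plxnc1* (chr10:94790866-94944835), the receptor of *Sema7a*, was at 39.2 ± 37.5 CPM in fibroblasts and 37.8 ± 2.08 CPM in neurons, values that do not differ beyond their spread.

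The class B plexins, receptors of class 4 semaphorins, were highest outside neurons. *Plxnb3* (chrX:73757090-73772514) was carried by oligodendrocytes at 222, 191, 188 and 229 CPM, with OPC next at 26.9, 37.3, 22.0 and 38.6 CPM. In neurons it was at 1.34 CPM, so oligodendrocytes were 155-fold higher, from 122-fold to 209-fold by library. A UMI of *Plxnb3* was found in 39.9% of the nuclei (95% interval 39.1 to 40.6%; 14.9% at 800 UMIs per nucleus) of that type against 0.733% of fibroblasts, at median depths of 2460 and 2320 UMIs. *Plxnb1* (chr9:109095389-109119917), the receptor of *Sema4d*, was at 99.8, 112, 91.7 and 92.3 CPM in astrocytes and 72.9, 88.7, 74.4 and 67.3 CPM in mural cells. Its 2.43 CPM in neurons (libraries 2.42, 2.04, 2.78 and 2.49) was the lowest level of any type. *Plxnb2* (chr15:89155549-89180788) was highest in ependymal cells at 50.7, 105, 86.5 and 60.8 CPM, overlapping *Tmem119*.Immune cells at 55.6, 49.5, 59.0 and 56.9 CPM, and neurons were at 8.53, 8.68, 7.95 and 9.64 CPM. *Plxnd1* (chr6:115954811-115995005), known as the plexin of vessels and the receptor of *Sema3e*, was at 46.3, 53.5, 46.6 and 70.0 CPM in endothelial cells, above fibroblasts at 14.3 CPM and neurons at 2.20, 2.22, 1.83 and 1.98 CPM. None of the 314 ependymal nuclei had a UMI of *Plxnd1*, which allows a level of up to 3.23 CPM from 3 counts over the 4 libraries.

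The secreted class 3 semaphorins divided among cell types, although *Sema3a*, *Sema3c*, *Sema3d* and *Sema3e* lie near each other on chromosome 5. *Sema3a* (chr5:13125414-13602565), the founding repellent of axons, was a gene of neurons at 65.4, 81.95, 105 and 60.5 CPM. Fibroblasts came next at 27.8, 30.5, 56.4 and 7.32 CPM, below every neuronal library. *Sema3c* (chr5:17574281-17730268) reached 1036, 712, 1077 and 942 CPM in endothelial cells and 17.5, 21.6, 24.6 and 16.1 CPM in neurons, the next type, a 47.2-fold distance. It was found in 57.8% of endothelial nuclei (95% interval 54.3 to 61.3%, and 43.1% at 800 UMIs per nucleus). In tanycyte-like nuclei the share was 1.49%. Median depths were 1460 and 3198 UMIs. *Sema3d* (chr5:12383385-12588948) and *Sema3e* (chr5:14025276-14256689) were both highest in OPC, the dividing precursors of oligodendrocytes. *Sema3d* was at 633, 608, 625 and 525 CPM there, at 66.7, 108, 135 and 124 CPM in fibroblasts and at 11.8, 11.9, 17.4 and 12.7 CPM in neurons. *Sema3e* was at 144, 127, 143 and 142 CPM in OPC and at 61.6, 78.6, 66.3 and 65.6 CPM in neurons, a 2.04-fold distance. *Sema3g* (chr14:31217860-31230352) was near 0 outside endothelial cells in the types compared, at 79.0, 30.2, 34.9 and 70.0 CPM against 1.09 CPM in *Tmem119*.Immune cells, the next type, and 0.335, 0.255, 0.225 and 0.482 CPM in neurons. No UMI of *Sema3g* was found in ependymal, mural or tanycyte-like nuclei, which allows up to 3.23, 2.18 and 4.23 CPM. *Sema3b* (chr9:107597674-107609229) and *Sema3f* (chr9:107681500-107710475), neighbours on chromosome 9, had means of at most 6.32 CPM, in fibroblasts, and 8.83 CPM, in endothelial cells, with 0.518 and 7.67 CPM in neurons.

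The promoters of *Sema3c*, *Sema3g*, *Sema7a* and *Plxnd1* are shown because these members stood apart in endothelial cells in all 7 settings tried. Each sequence runs 5′ to 3′ on the strand of its gene from 250 bases before to 50 bases after the start given by RefSeq on GRCm38.p6, and capitals mark GGAA or its reverse complement TTCC, the core letters bound by ETS factors, a family that many endothelial genes respond to. The windows are chr5:17574566-17574865 (plus strand), chr14:31217623-31217922 (plus strand), chr9:57939862-57940161 (plus strand) and chr6:115994956-115995255 (minus strand).
Sema3c: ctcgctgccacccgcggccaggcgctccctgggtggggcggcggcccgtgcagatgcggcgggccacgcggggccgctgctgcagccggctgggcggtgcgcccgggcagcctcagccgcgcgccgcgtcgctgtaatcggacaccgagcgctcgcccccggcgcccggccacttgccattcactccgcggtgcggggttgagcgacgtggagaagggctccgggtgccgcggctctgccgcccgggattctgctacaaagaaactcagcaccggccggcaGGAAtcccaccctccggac
Sema3g: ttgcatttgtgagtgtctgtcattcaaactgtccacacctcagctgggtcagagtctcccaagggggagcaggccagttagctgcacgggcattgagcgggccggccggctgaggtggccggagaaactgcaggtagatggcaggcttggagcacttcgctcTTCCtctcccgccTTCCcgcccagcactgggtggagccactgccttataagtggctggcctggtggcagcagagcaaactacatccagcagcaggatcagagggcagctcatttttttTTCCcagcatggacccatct
Sema7a: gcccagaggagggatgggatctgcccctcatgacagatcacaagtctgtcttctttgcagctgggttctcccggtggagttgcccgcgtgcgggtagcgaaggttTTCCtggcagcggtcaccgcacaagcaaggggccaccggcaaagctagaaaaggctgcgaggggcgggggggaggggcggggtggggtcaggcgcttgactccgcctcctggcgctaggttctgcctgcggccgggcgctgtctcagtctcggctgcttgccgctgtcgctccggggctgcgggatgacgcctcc
Plxnd1: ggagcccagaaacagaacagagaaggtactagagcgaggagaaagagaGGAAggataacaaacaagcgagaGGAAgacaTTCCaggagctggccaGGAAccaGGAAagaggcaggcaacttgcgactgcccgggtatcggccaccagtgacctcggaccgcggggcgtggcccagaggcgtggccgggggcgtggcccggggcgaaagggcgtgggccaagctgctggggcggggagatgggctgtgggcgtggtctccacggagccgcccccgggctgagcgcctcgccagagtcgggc
They hold 1, 3, 1 and 5 matches. Among 32851 promoters of the same length 96.0% hold at least 1, with a median of 3 and quartiles of 2 and 5, so these letters do not set the 4 windows apart.

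Class 4 semaphorins, ligands anchored in the membrane, were the class with the most members at their highest in neurons, 2 of 6. *Sema4f* (chr6:82911885-82939769) averaged 16.6 ± 0.953 CPM in neurons and 5.89 ± 9.84 CPM in tanycyte-like nuclei, whose highest library passed the neuronal values. *Sema4g* (chr19:44989101-45003397) lay at 31.9 ± 2.84 CPM in neurons and 31.8 ± 2.76 CPM in *Tmem119*.Immune cells, which cannot be ordered. *Sema4d* (chr13:51685529-51793747), which binds *Plxnb1* and is known from both immune cells and oligodendrocytes, was at 167, 173, 163 and 171 CPM in *Tmem119*.Immune cells. It was at 125, 124, 125 and 124 CPM in oligodendrocytes and at 58.3, 60.8, 61.9 and 62.2 CPM in neurons, 3 levels without overlap. *Sema4a* (chr3:88435959-88461182) was at 60.2, 62.9, 68.4 and 66.5 CPM in astrocytes and 19.3, 17.0, 18.6 and 18.5 CPM in neurons. *Sema4b* (chr7:80186841-80226527) was likewise an astrocyte gene, at 92.2, 74.9, 61.2 and 80.7 CPM there and 17.7, 17.5, 15.2 and 18.3 CPM in neurons. *Sema4c* (chr1:36548639-36558349), a ligand of *Plxnb2*, was low, at 20.8 ± 5.25 CPM in *Tmem119*.Immune cells, 18.6 ± 7.31 CPM in mural cells and 2.55 ± 0.529 CPM in neurons.

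Both class 5 semaphorins, which carry thrombospondin repeats, were highest in OPC. *Sema5b* (chr16:35541145-35664732) was at 209.7, 224, 222 and 191 CPM in OPC and at 25.4, 23.8, 23.2 and 23.0 CPM in neurons, 8.87-fold lower. *Sema5a* (chr15:32244810-32696341) was at 414, 416, 406 and 357 CPM in OPC. Mural cells reached 213, 212, 419 and 217 CPM, so that 1 mural library passed the OPC values, and neurons lay at 106, 113, 116 and 124 CPM. A UMI of *Sema5a* was found in 67.1% of the nuclei (95% interval 63.7 to 70.4%; 24.2% at 800 UMIs per nucleus) of OPC, and in 1.34% of *Tmem119*.Immune cells, at median depths of 3728 and 1871 UMIs.

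Class 6 semaphorins, transmembrane ligands of class A plexins, included a gene found in most cell types. *Sema6d* (chr2:124089969-124667770) was at 1219, 762, 1355 and 929 CPM in tanycyte-like nuclei, 488, 463, 622 and 599 CPM in astrocytes and 471, 465, 551 and 492 CPM in neurons. Tanycyte-like libraries held 26, 26, 67 and 83 nuclei, and their summed choroid plexus markers were at 953, 3535, 112 and 1521 CPM. *Sema6a* (chr18:47235598-47368870), which is known from myelinating cells, was at 299.8, 269.8, 379 and 513 CPM in endothelial cells, 178, 200.5, 253 and 231 CPM in oligodendrocytes and 64.9, 59.7, 58.3 and 58.6 CPM in neurons. *Sema6b* (chr17:56123085-56140343) averaged 27.1 ± 10.3 CPM in endothelial cells and 13.7 ± 1.21 CPM in neurons, and *Sema6c* (chr3:95160457-95174024) 21.0 ± 8.07 CPM in mural cells and 12.8 ± 0.237 CPM in neurons, both with overlapping libraries. *Sema7a* (chr9:57940112-57962865), the lipid-anchored member, was at 313, 279, 274 and 324 CPM in endothelial cells and 13.5, 14.4, 9.64 and 13.7 CPM in neurons. Oligodendrocytes came second at 14.0 ± 2.23 CPM, 21.2-fold lower. A UMI of *Sema7a* was found in 36.6% of the nuclei (95% interval 33.3 to 40.1%; 21.7% at 800 UMIs per nucleus) of endothelial cells and in 0.495% of tanycyte-like nuclei, at median depths of 1460 and 3198 UMIs.

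**Figure D2:**
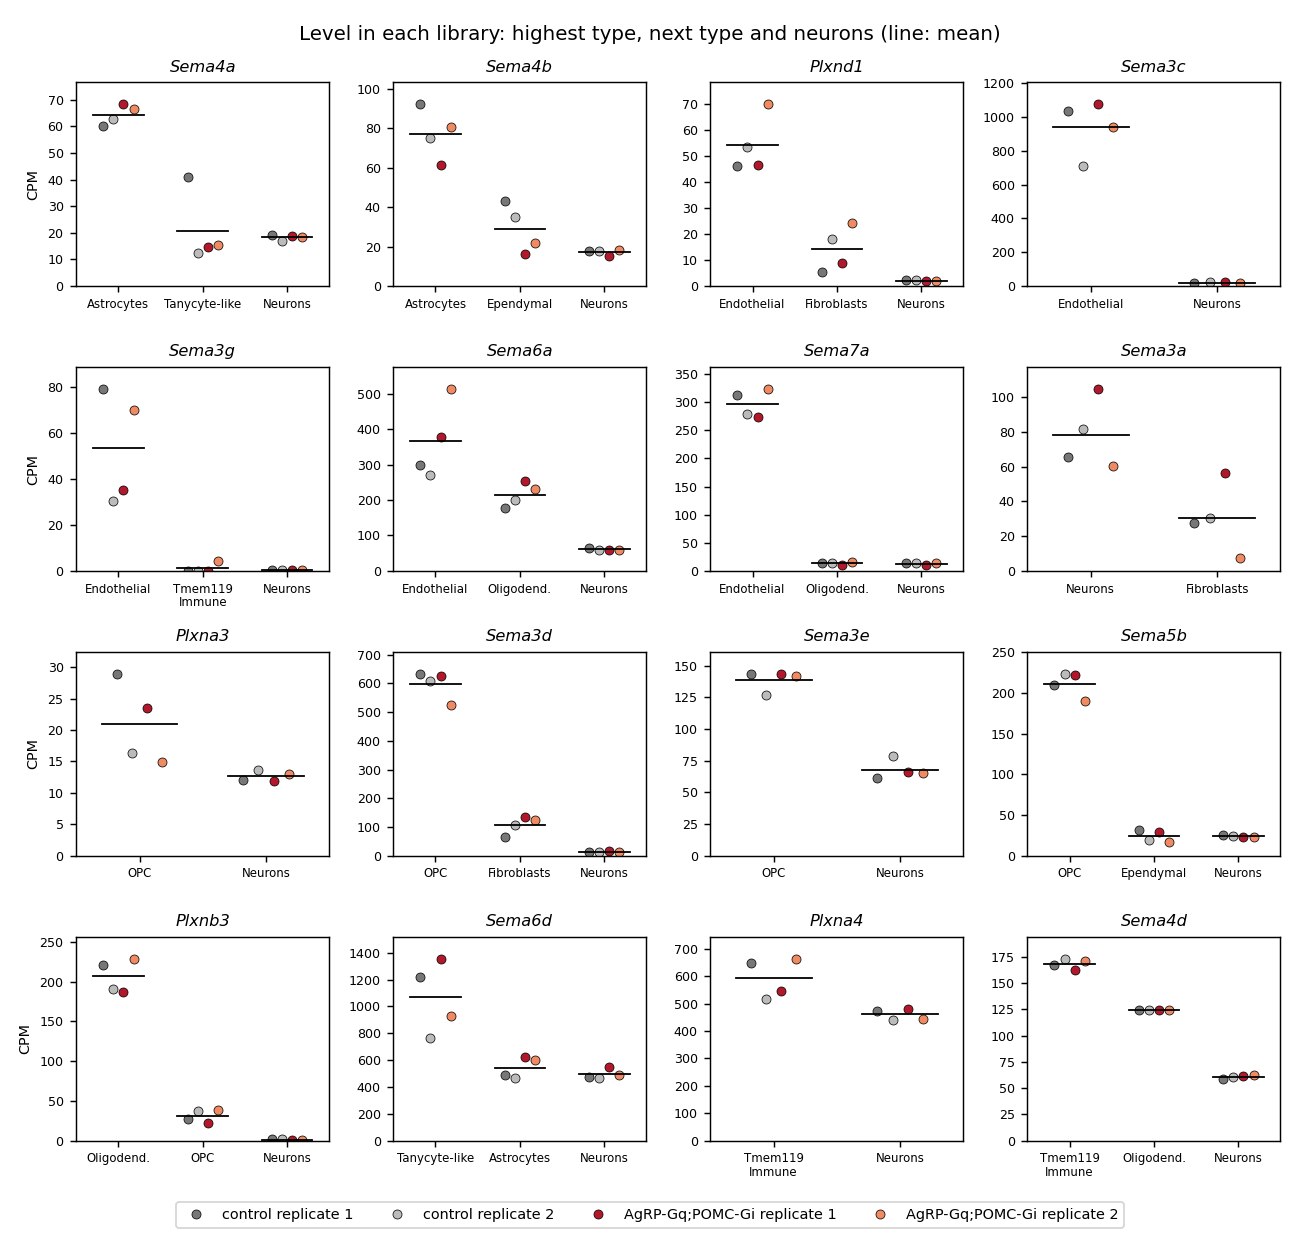
CPM of the 16 members that stood apart in 1 cell type, 1 panel per gene, with each library as a point and the mean as a line for the highest type, the next type and neurons. In every panel the 4 points of the first type lie above all points of the others, with a wide gap for *Sema3c* and *Sema7a* and a narrow one for *Plxna4*.

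Within neurons the question was which of the 134 neuronal clusters carried each member, and the 120 in which each library had 5 nuclei or more were compared. The authors' labels name each cluster by a number and 2 marker genes. Of the 31 members, 21 had a UMI in at least 10% of the 12539 neurons. Every cluster had a UMI of *Plxna4*, *Plxna2*, *Sema4d* and *Sema6d* in at least 10% of its nuclei, which held for 4 members in all. *Plxna4* had a UMI in 53.5% or more of the nuclei of all 120 clusters, with a median of 443 CPM and a range from 144 to 1135 CPM. Of the 31 members, 17 had no cluster in which 50% of the nuclei had a UMI, and 5 had a highest cluster at least 10 times their median cluster. The 3 members with a median cluster of 0, *Plxnd1*, *Sema3b* and *Sema3g*, were not counted among these 5. *Plxnb3*, which was, had 4 UMIs in its highest cluster.

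The neuropilins were highest in different clusters. *Nrp1* had a median cluster of 46.5 CPM (range 0 to 515), and its 3 highest clusters were 117 (*Ebf2*/*Nmu*) at 515 ± 115, 146 (*Rxfp1*/*Ebf2*) at 451 ± 71.8 and 181 (*Sntb1*/*Cpne4*) at 402 ± 109.7 CPM. In cluster 117 (*Ebf2*/*Nmu*) the libraries read 451, 533, 669 and 407 CPM. *Nrp2* had a median of 74.99 CPM (range 0 to 520.1), with its highest clusters 111 (*Cartpt*/*Postn*) at 520.1 ± 111, 70 (*Tfap2b*/*Cntnap5b*) at 462 ± 80.7 and 97 (*Gfral*/*Sctr*) at 374 ± 50.8 CPM. The libraries of cluster 111 (*Cartpt*/*Postn*) read 432, 426, 566 and 656 CPM, and all 3 clusters of each neuropilin were glutamatergic by *Slc17a6*, the main vesicular glutamate transporter of the hindbrain. Over the 120 clusters, which share libraries and differ in depth, the Spearman rho of *Nrp1* with *Nrp2* was -0.45.

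Clusters named for *Ebf2*, a transcription factor of neuronal differentiation, recurred among the highest clusters of *Plxna2* and *Nrp1*. At low levels such a cluster was also among the 3 highest of *Plxna3*, *Plxnb1* and *Plxnb2*. It was not for *Nrp2*, *Plxna4*, *Plxnc1*, *Plxna1*, *Plxnb3* or *Plxnd1*. *Plxna2* had a median of 144 CPM (range 28.8 to 737), and its highest clusters were 146 (*Rxfp1*/*Ebf2*) at 737 ± 221, 117 (*Ebf2*/*Nmu*) at 516 ± 167 and 105 (*Ebf2*/*Calb1*) at 508 ± 85.0 CPM. The libraries of cluster 146 (*Rxfp1*/*Ebf2*) read 498, 893, 953 and 603 CPM. In the 11 clusters with *Ebf2* in their label the median was 323 CPM for *Plxna2* against 141 CPM in the other 109. For *Nrp1* it was 150 CPM against 45.2 CPM. These clusters held 5 and 4 of the 10 highest of *Plxna2* and *Nrp1*. The set of clusters and both genes were chosen after the values were seen. The ranges overlapped, from 77.9 to 737 CPM for *Plxna2* and from 10.5 to 515 CPM for *Nrp1* in the *Ebf2* clusters.

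The other plexins were highest in clusters of many labels. *Plxna4* was highest in 72 (*Ano2*/*Foxp2*) at 1135 ± 261, 145 (*Col12a1*/*Tnc*) at 1074 ± 82.3 and 142 (*Cpne4*/*Trhde*) at 1051 ± 297 CPM, and the libraries of the first, 1164, 768, 1380.3 and 1229 CPM, overlapped those of the second. *Plxnc1* had a median of 32.9 CPM (range 4.90 to 174) and its high clusters included 126 (*Tfap2b*/*Slc39a8*) at 152 ± 60.0 and 70 (*Tfap2b*/*Cntnap5b*) at 138 ± 40.5 CPM. *Plxna1* was highest in 184 (*Calcr*/*Shox2*) at 38.6 ± 48.2, 85 (*Tfap2b*/*Glra3*) at 38.4 ± 30.1 and 143 (*Kcnq5*/*Hs3st4*) at 33.2 ± 21.1 CPM and *Plxna3* in 146 (*Rxfp1*/*Ebf2*) at 36.0 ± 24.9, 127 (*Dach1*/*Unc5d*) at 33.0 ± 7.74 and 45 (*Prdm16*/*Zfp804b*) at 28.8 ± 6.95 CPM, levels at which the SD is close to or above the distance between clusters. *Plxnd1* had no UMI in 72 clusters. Of its UMIs in the 120 clusters, 70.4% came from the 10 highest, which hold 7.87% of all UMIs there. First among them was 59 (*Kcnmb2*/*Sema3a*) at 30.0, 48.4, 30.9 and 26.6 CPM. *Plxnb1*, *Plxnb2* and *Plxnb3* stayed at or below 17.1, 25.3 and 19.2 CPM, in clusters 163 (*Adamts18*/*Col25a1*), 148 (*Ccdc172*/*Ebf2*) and 173 (*Mecom*/*Oprk1*).

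Several secreted semaphorins were concentrated in a few clusters. *Sema3a* had a median of 32.7 CPM, no UMI in 7 clusters, and its highest level in cluster 73 (*Sema3a*/*Klhl1*) at 611, 705, 873 and 618 CPM, 21.4 times the median. *Sema3a* is itself a label gene of 7 clusters, at 212 to 702 CPM, of which 4 are GABAergic, 2 glutamatergic and 1 mixed, so its level there was used in naming them. The next highest were 56 (*Kcnmb2*/*Sema3a*) and 108 (*Sema3a*/*Il1rapl2*) at 602 ± 48.9 and 497 ± 41.6 CPM. The 10 highest clusters of *Sema3a* held 43.5% of its UMIs and 8.16% of all UMIs in the 120 clusters. *Sema3c*, low in neurons as a whole, reached 266, 309, 275 and 473 CPM in the 39 nuclei of cluster 176 (*Dkk2*/*Col25a1*), above every library of the next cluster, 116 (*Prph*/*Slc5a7*). *Sema3e* had a median of 46.1 CPM (range 0 to 389) and was highest in 86 (*Tfap2b*/*Col25a1*) at 389 ± 65.8, 75 (*Qrfprl*/*Baiap3*) at 303 ± 78.9 and 123 (*Reln*/*Pou4f1*) at 274 ± 76.1 CPM. *Sema3d* was highest in cluster 28 (*Mecom*/*Sema3a*) at 77.2, 81.9, 152 and 115 CPM and *Sema3f* in 125 (*Otof*/*Stac*) at 89.8, 20.0, 59.6 and 64.5 CPM. The highest clusters of *Sema3b* and *Sema3g*, 129 (*Bnc2*/*Ebf2*) and 153 (*Lmo3*/*Cpne4*), rest on 1 of 67 and 2 of 54 nuclei and are not levels.

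Membrane-bound semaphorins ranged from even over neurons to concentrated. For *Sema5b* and *Sema7a* the 10 highest clusters held 32.2 and 31.0% of the member's UMIs in the 120 clusters. The same clusters held 11.5 and 10.2% of all UMIs there. *Sema6d* ranged widely around its median of 460.1 CPM (range 25.5 to 1699) and was highest in 168 (*Rspo2*/*Ntng1*) at 1699 ± 347, 123 (*Reln*/*Pou4f1*) at 1512 ± 452 and 155 (*Kcnh8*/*Arhgap6*) at 1407 ± 514 CPM, where the libraries of the first read 1303, 2143, 1621 and 1728 CPM. *Sema5a* was highest in 80 (*Pdyn*/*Cpa6*) at 609 ± 137, 160 (*Ebf2*/*Ism1*) at 497 ± 98.1 and 142 (*Cpne4*/*Trhde*) at 485 ± 284 CPM, around a median of 97.3 CPM (range 4.00 to 609). *Sema6a* had its highest values in 151 (*Lhx2*/*Reln*) at 209 ± 41.6, 87 (*Col25a1*/*Nox4*) at 194 ± 64.7 and 64 (*Ebf3*/*Pax2*) at 191 ± 55.3 CPM. *Sema5b* was the 1 class 5 to 7 member whose highest cluster stood apart from the next in every library. That cluster, 38 (*Kcnh8*/*Maf*), was at 91.7, 96.2, 102 and 122 CPM, and the cluster of rank 3, 42 (*Mylk*/*Mctp2*), at 69.5 ± 5.48 CPM. *Sema7a* was highest in 151 (*Lhx2*/*Reln*) at 61.7 ± 27.0, 42 (*Mylk*/*Mctp2*) at 60.0 ± 17.4 and 140 (*Fgf10*/*Cpne4*) at 51.5 ± 21.5 CPM. In contrast, *Sema4d* stayed within 21.6 to 142 CPM and was highest in 121 (*Slc17a7*/*Lama1*) at 142 ± 46.2, 118 (*Lhx9*/*Col25a1*) at 106 ± 53.0 and 165 (*Hcrtr2*/*L3mbtl4*) at 92.8 ± 84.6 CPM.

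Only for *Sema3c* and *Sema5b* did every library of the highest cluster lie above every library of the next. For the remaining members, as for those above, the highest clusters overlapped the next. They were 100 (*Dlk1*/*F13a1*) at 48.9 ± 18.2, 149 (*Cartpt*/*Arhgap28*) at 47.3 ± 9.71 and 85 (*Tfap2b*/*Glra3*) at 46.9 ± 22.9 CPM for *Sema4a* and 49 (*Ccbe1*/*Tspan18*) at 45.4 ± 15.6, 184 (*Calcr*/*Shox2*) at 37.9 ± 21.6 and 100 (*Dlk1*/*F13a1*) at 30.9 ± 13.3 CPM for *Sema4b*. For *Sema4f* they were 72 (*Ano2*/*Foxp2*) at 52.7 ± 10.6, 162 (*Chrdl1*/*Kcnh8*) at 38.7 ± 12.4 and 104 (*Gabra6*/*Fat2*) at 37.7 ± 18.3 CPM, and for *Sema4g* 157 (*Cnpy1*/*Adamts18*) at 82.7 ± 37.2, 70 (*Tfap2b*/*Cntnap5b*) at 70.9 ± 18.3 and 149 (*Cartpt*/*Arhgap28*) at 70.0 ± 66.3 CPM. *Sema6b* was highest in 148 (*Ccdc172*/*Ebf2*) at 33.8 ± 19.3, 142 (*Cpne4*/*Trhde*) at 33.3 ± 34.4 and 125 (*Otof*/*Stac*) at 25.0 ± 9.54 CPM and *Sema6c* in 72 (*Ano2*/*Foxp2*) at 46.4 ± 29.3, 123 (*Reln*/*Pou4f1*) at 32.3 ± 26.0 and 96 (*Npsr1*/*Igf1*) at 28.1 ± 21.1 CPM. *Sema4c* reached 11.4 ± 13.5 CPM in 184 (*Calcr*/*Shox2*). A cluster recurs in these lists, 72 (*Ano2*/*Foxp2*), which was highest for *Plxna4*, *Sema4f* and *Sema6c* and second for *Plxnb2*, and was singled out after its values were seen. Its libraries held 76, 6, 6 and 39 nuclei. In this cluster *Plxnb2* read 6.43, 20.8, 66.8 and 5.67 CPM and *Sema6c* 24.8, 41.5, 89.1 and 30.2 CPM. Without AgRP-Gq;POMC-Gi replicate 1, *Sema6c* and *Plxna4* were highest in other clusters.

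**Figure D3:**
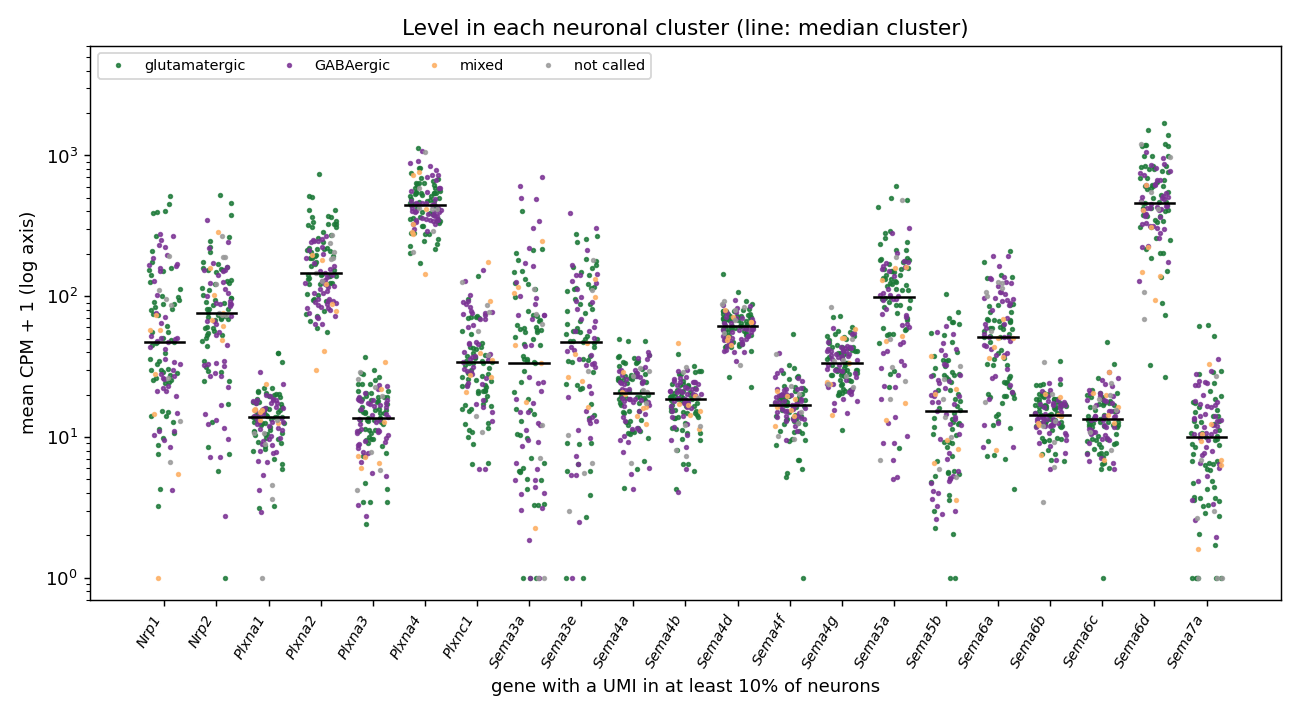
Mean CPM plus 1 over 4 libraries, on a log axis, in each of the 120 neuronal clusters for the 21 members with a UMI in at least 10% of neurons, coloured by transmitter class, with a line at the median cluster. *Sema4d* and *Plxna4* form tight bands, while *Sema3a*, *Nrp1* and *Sema3e* spread from 0 CPM, drawn at 1, to several times their median.

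Rank correlations over clusters were read for a list of 16 known pairs of ligand, receptor and co-receptor, which does not hold every pair that can bind. In these the Spearman rho over the 120 clusters ran from -0.43 to 0.19, was positive in 6 and lay within 0.2 of 0 in 11. The most negative were *Sema6a* with *Plxna2* (-0.43), *Sema7a* with *Plxnc1* (-0.39), the co-receptors *Nrp1* and *Plxna4* (-0.36), *Sema6a* with *Plxna4* (-0.32) and *Sema3a* with *Nrp1* (-0.29). The highest on the list were *Sema4d* with *Plxnb1* (0.19) and *Sema4c* with *Plxnb2* (0.19). Pairs of the same classes outside the list were higher, among them *Nrp2* with *Plxna4* (0.51) and with *Plxna2* (0.45), *Sema6d* with *Plxna2* (0.36) and with *Plxna4* (0.35), and *Sema4a* with *Plxnb2* (0.33) and with *Plxnb1* (0.27), and were picked after their values were seen. The clusters share the 4 libraries and differ in depth, so these are descriptions.

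The gene most like each member over the 120 clusters was sought among 15469 genes with at least 200 UMIs in neurons. For *Nrp1* it was *Kcnh8* (0.66), a potassium channel gene, for *Plxna2* *Ptprn2* (0.61), for *Plxnc1* *Fxyd6* (0.62) and for *Sema3a* *Lrba* (0.56), with rho in parentheses. *Nrp2* was most like *Pard3b* (0.79), its neighbour on chromosome 1. The first genes for *Plxna4*, *Sema3e* and *Sema6d* were *Plxna4os3* (0.85), *Gm4128* (0.93) and *4930583P06Rik* (0.72), which overlap them in the genome and may share their reads, and after these came *Cadm1* (0.63), *Malt1* (0.39) and *Nucb2* (0.52). *Sema7a* was most like *Kcna1* (0.76), another potassium channel gene, and *Sema5b* most like *Aff1* (0.55), and both members also followed the depth of the clusters, at rho 0.52 and 0.49. *Plxnc1*, *Plxna2*, *Sema4a*, *Sema4g* and *Nrp2* ran against depth, at rho -0.48, -0.44, -0.43, -0.40 and -0.36. Among the other members the first genes included *Gm44643* (0.67) for *Sema4a*, *Izumo4* (0.53) for *Sema4d*, *Stmn1* (0.53) for *Sema4g*, *Slc30a10* (0.51) for *Plxna3*, *Gm12158* (0.44) for *Sema6b*, *F13a1* (0.44) for *Sema5a*, *Rpl32* (0.41) for *Sema4b*, *Lhx5* (0.40) for *Sema6a*, *Tmc4* (0.40) for *Plxna1* and *Asphd1* (0.37) for *Sema4f*.

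Members were also read in 3 of the clusters that the study examined for immediate early genes. In cluster 63 (*Ebf2*/*Th*), 139 nuclei named for tyrosine hydroxylase, *Nrp1* was at 329, 479.9, 342 and 435 CPM, 8.52 times its median cluster and 4th of 120. *Plxna2* was at 235, 322, 332 and 403 CPM there, 13th of 120. *Plxna4*, *Sema6d* and *Sema5a* were at 317 ± 39.8, 151 ± 23.1 and 125 ± 62.2 CPM, with ranks 101, 109 and 47 of 120. This cluster was among the 10 highest, which are 8.33% of the 120, for 5 members, but *Plxnb1*, *Plxnb2* and *Sema6b* had 9, 16 and 21 UMIs in it, and the others were *Nrp1* and *Sema5b*. The number was 2 for cluster 82 (*Tal1*/*Nell1*) and 0 for cluster 109 (*Gcg*/*Reln*). Those 2 were *Sema4f* and *Sema5b*, on 27 and 60 UMIs. By level, cluster 82 carried most of *Sema6d*, *Plxna4*, *Sema5a*, *Nrp2* and *Sema6a*, at 512 ± 173, 325 ± 19.4, 163 ± 65.9, 153 ± 39.6 and 117 ± 53.8 CPM. Among the 120 clusters these levels ranked 50, 98, 27, 23 and 16. In cluster 109, whose label gene *Gcg* encodes the precursor of GLP-1, *Plxna4* was at 495, 579, 518 and 494 CPM, and *Sema6d*, *Plxna2*, *Nrp2* and *Sema5a* at 423, 152, 152 and 98.5 CPM, with ranks from 25 to 68 of 120.

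Transmitter class ordered the members weakly. Clusters were called glutamatergic where *Slc17a6* was at least 4-fold above *Slc32a1*, the vesicular transporter of GABA, and GABAergic in the reverse case. Those with under 20 UMIs of both genes were not called, and no glycine gene entered the rule. This gave 69 glutamatergic clusters with 6201 nuclei and 46 GABAergic ones with 4933 nuclei, beside 7 mixed and 12 not called. None of the 31 members was at least 2-fold higher in 1 class in every library, of which 29 had the minimum of 100 UMIs in neurons. Over 17234 genes the same rule was met by 1.21% toward glutamatergic and by 0.615% toward GABAergic clusters. Smaller differences had the same sign in every library for 15 members, 11 higher in glutamatergic and 4 in GABAergic clusters, beside 15.2% and 24.6% of all genes. Toward GABAergic clusters, *Sema3a* was 1.63 to 1.75-fold higher by library, *Plxnc1* 1.29 to 1.68-fold, *Sema6a* 1.31 to 1.49-fold and *Sema3f* 1.33 to 2.01-fold. For *Sema3a* the order was the opposite by clusters, where the median glutamatergic one, at 34.6 CPM, was above the median GABAergic one at 21.8 CPM. Toward glutamatergic clusters, *Plxnb1* was 1.70 to 3.38-fold, *Sema3c* 1.62 to 3.28-fold, *Sema3d* 1.69 to 2.78-fold, *Sema5a* 1.31 to 2.22-fold and *Plxna2* 1.24 to 1.56-fold higher. *Plxnb1* was low in both classes, at 3.14 ± 0.537 and 1.47 ± 0.451 CPM, with 308 UMIs in all neurons. *Plxna4*, at 465 ± 25.7 and 462 ± 25.7 CPM, and *Nrp1*, at 78.6 ± 18.3 and 77.7 ± 5.44 CPM, did not differ beyond their spread. With a 10-fold ratio for the class, 3 members passed the 2-fold rule, *Sema3c* and *Sema3d* toward glutamatergic and *Sema3f* toward GABAergic clusters, beside 1.39% and 0.714% of all genes.

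**Figure D4:**
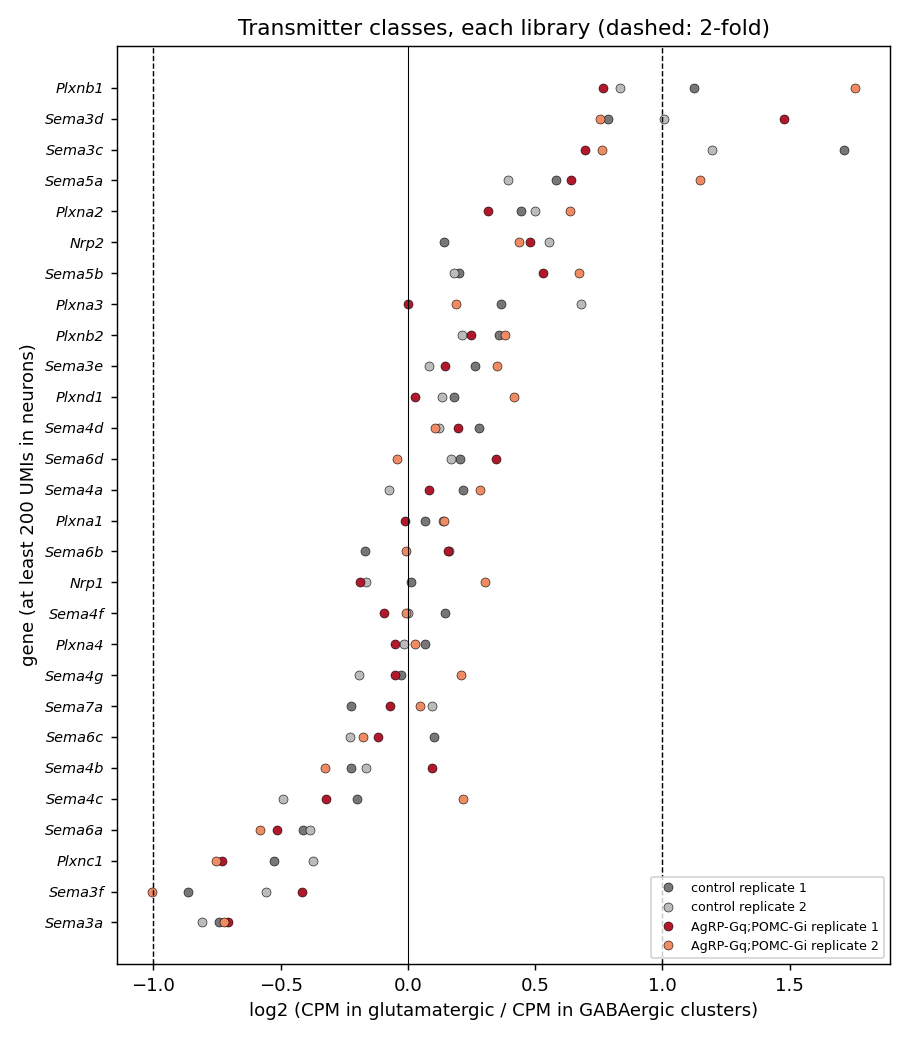
log2 ratio of CPM in glutamatergic over CPM in GABAergic clusters for the 28 members with at least 200 UMIs in neurons, with each of the 4 libraries as a point and dashed lines at 2-fold. No row lies wholly beyond a dashed line, *Sema3a* has the 4 tightest points on the GABAergic side, and *Plxnb1*, *Sema3d* and *Sema3c* lie farthest toward glutamatergic clusters. The row of *Plxnb1* rests on 308 UMIs in neurons.

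The group comparison asked whether member levels differed after AgRP neurons were activated and POMC neurons inhibited. By edgeR's quasi-likelihood test on UMIs summed per library, with Benjamini-Hochberg adjustment over all genes of a cell type, none of 117 pairs of member and cell type passed an adjusted p of 0.05, beside 0.103% of 79778 pairs over all genes. At an unadjusted p under 0.05 there were 17 pairs, beside 6.25% of all pairs, and DESeq2 called 0 and had 12 at an unadjusted p under 0.05, beside 2.44% by its own test. In neurons, where 25 members were tested, log2 differences ran from -0.20 ± 0.15 (SE) for *Sema7a* to 0.41 ± 0.19 for *Sema3d*, with a median of 0.0880 beside -0.000294 for all genes. In sums over nuclei, a change in the share of nuclei with a transcript and one in transcripts per nucleus cannot be told apart. Shares of nuclei were not compared between groups.

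The members of smallest p in neurons were *Nrp2*, *Sema4g* and *Plxna2*. *Nrp2* was at 80.0, 83.7, 96.1 and 97.6 CPM, neither control reaching either AgRP-Gq;POMC-Gi library (log2 0.30 ± 0.07, edgeR adjusted p = 0.810). *Sema4g* was at 29.4, 29.5, 33.6 and 34.9 CPM and *Plxna2* at 147, 147, 174 and 164 CPM, again without overlap, as in 38.1% of the genes tested in neurons (log2 0.28 ± 0.08 and log2 0.27 ± 0.08, both at an adjusted p of 0.810). These counts turn on 1 library. Without AgRP-Gq;POMC-Gi replicate 2, the library low in *Xist*, 10 members passed in neurons, with *Nrp2*, *Plxna2*, *Sema6d*, *Sema3d*, *Sema3a*, *Sema3c*, *Plxnc1*, *Sema5a* and *Sema4g* higher and *Sema7a* lower, but 16.6% of the 12115 genes tested passed too. The lone library of that arm was then assumed to vary like the controls. Without AgRP-Gq;POMC-Gi replicate 1, *Nrp1* in neurons passed instead, beside 0.239% of genes, and it reads 71.9, 71.1, 65.3 and 94.9 CPM. Beside the levels of *Sema3a*, 65.4, 81.95, 105 and 60.5 CPM, the 7 clusters labelled with it made up 6.07, 7.49, 8.09 and 6.21% of neurons, whose part in the difference was not tested.

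**Figure D5:**
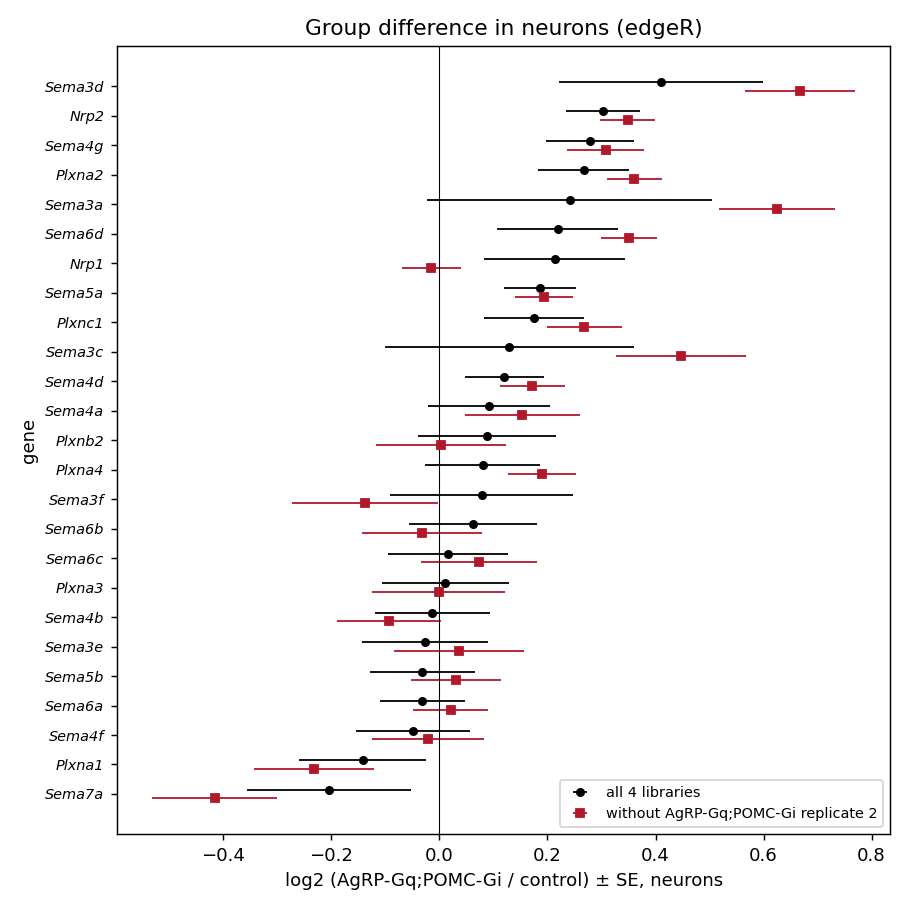
log2 difference between AgRP-Gq;POMC-Gi and control libraries in neurons, with its standard error, for the 25 members tested, over all 4 libraries and without AgRP-Gq;POMC-Gi replicate 2. With 4 libraries the points run from -0.20 to 0.41, and without that library *Sema3d*, *Sema3a* and *Sema3c* move farthest to the right and *Sema7a* to the left.

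Outside neurons the smallest p was that of a class 6 semaphorin. *Sema6d* in mural cells, at 336, 273, 507 and 438 CPM, had the smallest of all pairs (log2 0.65 ± 0.20, edgeR adjusted p = 0.154). *Sema6a* was at 299.8, 269.8, 379 and 513 CPM in endothelial cells (log2 0.66 ± 0.22, adjusted p = 0.496), at 178, 200.5, 253 and 231 CPM in oligodendrocytes (adjusted p = 0.365), at 143, 124, 172 and 164 CPM in OPC (adjusted p = 0.758) and at 24.2, 26.3, 31.7 and 34.0 CPM in astrocytes (adjusted p = 0.365). In each of these types the controls lay below the AgRP-Gq;POMC-Gi libraries without overlap, and none passed the test. Libraries of the groups did not overlap in 35.5% of all pairs of gene and cell type. The same held in ependymal cells, at 35.1, 59.7, 65.9 and 78.2 CPM (adjusted p = 0.991). In neurons, at 64.9, 59.7, 58.3 and 58.6 CPM, and in fibroblasts, at 106, 96.4, 94.8 and 73.2 CPM, the AgRP-Gq;POMC-Gi libraries were the lower ones, again without overlap, with each difference inside its SE. In tanycyte-like nuclei they overlapped, at 61.5, 25.0, 97.1 and 55.2 CPM. *Sema6d* was at 312, 311, 383 and 370.5 CPM in oligodendrocytes and 488, 463, 622 and 599 CPM in astrocytes, with adjusted p of 0.418 and 0.335. Its libraries did not overlap in neurons and fibroblasts either, with log2 differences of 0.22 ± 0.11 and 0.39 ± 0.37, and overlapped in endothelial cells, OPC, ependymal cells and tanycyte-like nuclei, with -0.17 ± 0.38, 0.11 ± 0.15, 0.26 ± 0.28 and 0.41 ± 0.42. Without AgRP-Gq;POMC-Gi replicate 2, *Sema6a* and *Sema6d* in oligodendrocytes passed, higher in the AgRP-Gq;POMC-Gi group, beside 7.63% of the 6646 genes tested there.

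The receptors outside neurons and the remaining pairs of small p did not pass either. *Plxna2* was at 717, 744, 501 and 557 CPM in endothelial cells (log2 -0.46 ± 0.20) and at 345, 634, 781 and 1013 CPM in fibroblasts (log2 0.86 ± 0.36), values of opposite sign with adjusted p of 0.741 and 0.9998. *Nrp1* and *Sema3d* in fibroblasts had log2 differences of 0.76 ± 0.35 and 0.50 ± 0.30, with 72 nuclei in control replicate 1 against 391 in control replicate 2. *Nrp2* was at 31.2, 31.1, 37.8 and 38.4 CPM in oligodendrocytes (adjusted p = 0.389) and had log2 differences of 0.43 ± 0.27 in endothelial and -0.16 ± 0.27 in *Tmem119*.Immune cells. In mural cells *Sema5a* was at 213, 212, 419 and 217 CPM, a difference carried by 1 library, and *Nrp1* at 135, 194, 135 and 101 CPM. In tanycyte-like nuclei *Sema5b* was at 0, 0, 34.0 and 33.7 CPM, where a count of 0 in each of the 26-nucleus control libraries leaves no fold, and *Plxnb1* and *Sema5a* were at 41.0, 12.5, 53.4 and 110.4 and 41.0, 74.9, 19.4 and 15.3 CPM. For *Sema4b*, *Sema6a* and *Plxnc1* in ependymal cells, *Sema4b* in astrocytes, *Sema4d* and *Sema4g* in OPC, and *Sema4g* and *Plxnb2* in *Tmem119*.Immune cells, the log2 differences were -0.98, 0.67, 0.74, -0.20, 0.45, 0.36, 0.21 and 0.15, each with an unadjusted p above 0.1.

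By neuronal cluster, none of 2610 pairs of member and cluster passed after adjustment over all genes and clusters together, beside 0.0279% of 1396489 pairs over all genes. At an unadjusted p under 0.05 there were 214, beside 4.52%, while DESeq2 called 0 and had 35, beside 0.39% by its own test. The smallest p was that of *Sema6d* in cluster 134 (*Dach1*/*Sema3a*), at 53.8, 15.8, 158 and 146 CPM (log2 2.28 ± 0.44, edgeR adjusted p = 0.0521). It passed with the replicate number as a block, beside 0.0425% of all pairs. It also passed by library size without TMM factors, as did 0.0307% of all pairs. *Nrp2* in cluster 127 (*Dach1*/*Unc5d*) passed in that setting too, lower in the AgRP-Gq;POMC-Gi group, as it did with the replicate block and without control replicate 2. It was at 202, 23.4, 6.38 and 11.5 CPM, with control replicate 1 alone far above the rest (log2 -3.48 ± 0.85, edgeR adjusted p = 0.168). Adjusted within each cluster alone, 2 of the 2610 pairs of member and cluster passed, beside 0.0385% of all pairs. Among them was *Nrp1* in cluster 65 (*Eya1*/*Hs3st4*), which was at 31.5, 31.4, 134 and 94.4 CPM (log2 1.93 ± 0.41, edgeR adjusted p = 0.0344 within the cluster and 0.0709 over all). The number of calls without 1 library was 3 and 2 for control replicates 1 and 2 and 8 for either AgRP-Gq;POMC-Gi replicate, beside 0.0441, 0.0748, 0.0697 and 0.0727% of all pairs in that order of libraries.

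Genes that act with the family were read from a list of 45, among them collapsin response mediators, MICAL enzymes, small GTPases and their exchange factors, kinases and cell adhesion co-receptors. Of these, 42 could be tested in at least 1 cell type, and 0 of 250 pairs passed the edgeR test after adjustment. An unadjusted p under 0.05 was reached by 8 pairs, 4 higher and 4 lower in the AgRP-Gq;POMC-Gi group, which is 3.20% of the pairs beside 6.25% over all genes. The smallest was that of *Rap1a*, a GTPase on which plexins act, in oligodendrocytes (log2 0.52 ± 0.10, adjusted p = 0.147), followed by *Mical2*, an actin-oxidising enzyme, in ependymal cells (log2 -1.87 ± 0.51, adjusted p = 0.991). In neurons the smallest was *Cfl1*, the actin-severing cofilin (log2 -0.27 ± 0.09, adjusted p = 0.810). Over clusters 0 of 4092 pairs passed and 149 had an unadjusted p under 0.05, 91 higher and 58 lower, which is 3.64% beside 4.52% over all genes.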

How the data were processed

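Nuclei of the posterior hindbrain were measured in 4 libraries, 2 per group, grouped by their titles. Per the labels and the study's methods, the authors used the 3′ chemistry of 10x Genomics, ran Cell Ranger 7.0.0 against GRCm38 (mm10) and handled the count matrices in Seurat 4.3.0. The deposited counts are raw UMIs per gene and barcode. The authors' table gave the nuclei kept and their cluster and type, and lists all barcodes of the matrices with a mark on those kept. The authors ran a doublet caller, and no doublets were called here. Columns of the authors' own activation score were not used.

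CPM are sums of UMIs per library and cell type or cluster, scaled to the total of those nuclei. Groups were compared in edgeR 4.0.16 (R 4.3.3) by its quasi-likelihood test with TMM factors, for genes detected in 5% or more of the nuclei, in cell types with 20 or more nuclei per library and clusters with 5 or more, with Benjamini-Hochberg adjustment over all genes of a cell type, or over all genes and clusters together. The scripts were tested on simulated data. Shares of nuclei were also computed after thinning to 800 UMIs per nucleus for cell types and 2000 for clusters, which left out 166 of 12539 neurons. Intervals are exact binomial, and intervals and limits of a zero count cover counting error only. Python 3.11.15 with scipy 1.17.1 was used.

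Alternatives were DESeq2 1.42.0, leaving out TMM factors, no gene filter, filterByExpr, the replicate number as a block, each library left out, the mean natural log value per nucleus, thinned shares, all cell types, other class ratios and at least 10 nuclei per library. The members, the gene lists and the tests were chosen with earlier results of these data known. Every member was named with its neuronal level and highest type, library values were given for members reaching 50 CPM in a type, the 3 highest clusters for members with a UMI in 10% of neurons, and the 3 members of smallest p per cell type. Results for a few genes and clusters are not reported here.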

Additional observations from a re-analysis of the deposited data

Results flagged for a closer look

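Of 70 groups of 4 libraries, 1 for each member and cell type with a mean of at least 50 CPM, 4 had 1 library far from the other 3 by Dixon's ratio at its 95% critical value. Chance alone gives about 1 in 20 such groups. *Plxna4* in endothelial cells was at 153 CPM in control replicate 2, on 164 UMIs over all libraries, against 108 to 114 CPM in the others. *Sema3e* in OPC was lowest in control replicate 2, at 127 CPM against 142 to 144 CPM. *Sema5a* was set apart in both OPC and mural cells, with 357 CPM in AgRP-Gq;POMC-Gi replicate 2 against 406 to 416 CPM in OPC, and 419 CPM in AgRP-Gq;POMC-Gi replicate 1 against 212 to 217 CPM in mural cells. Mural cells numbered 103 in that last library, the fewest of the 4.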

How the results depend on the processing

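Of 511 alternative values, 84 were class ratios of members with the same sign in every library, and 1 of these was reversed. It was *Sema3a*, whose log2 of glutamatergic over GABAergic clusters, -0.74, was 0.39 by the median over clusters. For members whose libraries differed in sign, 16 of 84 alternative class ratios changed sign. The number of members highest in neurons, 3 by CPM, was 9 by the mean natural log value per nucleus and 2 to 5 when 1 library was left out, 5 without AgRP-Gq;POMC-Gi replicate 2. The number standing apart in 1 type, 16, was 6 with all cell types and 16 to 19 with 1 library left out. The number at least 2-fold apart between transmitter classes, 0, was 3 with a 10-fold ratio for the class, 2 by thinned shares and 4 at 1.5-fold. Apart from the 10-fold ratio, no share of all genes was taken beside these alternative counts of members. Of the 31 highest clusters, 11 were kept by thinned shares, 8 with at least 10 nuclei per library, and 17 to 27 with 1 library left out, 17 without control replicate 2. Calls between groups, 0 in cell types, were 0 to 12 with 1 library left out, beside 0.249 to 3.52% of all pairs, and in clusters, 0, they were 2 without TMM factors and 2 to 8 with 1 library left out. Except where fewer clusters or samples entered by construction, the cause was not tested.

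The replicate numbers are not stated to pair libraries, and deviations of libraries of the same number correlated at -0.147 to 0.345 over the 10 cell types. With the replicate number as a block there was 1 call in cell types, *Sema5a* in oligodendrocytes, and 6 in clusters, beside 1.16% and 0.0425% of all pairs. A crossed pairing, chosen after seeing the data, gave 0 calls in cell types, beside 0.51% of all pairs.

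Depth limits the members with few UMIs: 10 of 31 had a UMI in under 10% of neurons, and in the cell types other than neurons median depth was 1460 to 3728 UMIs per nucleus.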
